A study of Rattus norvegicus with 20 samples.

Results

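Activins are secreted signalling proteins of the TGF-beta family, and the genes described here encode their subunits together with a binding protein and a membrane inhibitor. The set consists of Inhba, Inhbb, Inhbc and Inhbe, which encode the inhibin beta subunits, of Fst (follistatin), and of Bambi. Members were taken as the probe sets whose platform annotation names exactly one of these genes, which gave 6 of 14217 genes and 8 of the 31042 probe sets on the array: 2 each for Inhba and Fst and 1 for every other gene. The set was put together after a low Inhba signal had been seen in the BNF livers, so for these 6 genes the Inhba values in those livers, and every difference of BNF from control, are given as description, with no p-value. Only 3 of the 8 probe sets passed the filter for testing, a log2 value above 4 in at least 5 of the 20 arrays: 1 of the 2 for Inhba, and those for Inhbe and Bambi. The set's name is therefore only partly borne out by signal in these livers, since no probe set of Fst or Inhbb exceeded that level in any array, and the one for Inhbc exceeded it in 1.

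Liver RNA was measured in 20 female Sprague Dawley rats, on 1 single-colour Affymetrix array for each animal. The rats had eaten their diet for 24 days, with 5 rats to each of 4 diets. All diets had the same mash base. The BNF diet held 1650 mg per kg of 5,6-benzoflavone, which binds and activates the aryl hydrocarbon receptor (AhR). The D3T diet held 600 mg per kg of 3H-1,2-dithiole-3-thione. The OLT diet held 500 mg per kg of oltipraz, the same ring with methyl and pyrazinyl substituents, so the related compounds were not fed at matched doses. Dithiolethiones are known to activate the transcription factor Nrf2. Control rats ate the base without an additive.

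A beta subunit joined to another beta subunit makes an activin, and a beta subunit joined to the alpha subunit (Inha) makes an inhibin. Activins bind type II receptors (Acvr2a, Acvr2b), which recruit type I receptors that phosphorylate Smad2 and Smad3, and these enter the nucleus with Smad4. Follistatin binds activin and keeps it from its receptors, and Bambi resembles a type I receptor but lacks the kinase domain. The beta C and beta E subunit genes are known to be expressed mainly in liver, while activin A, made from the Inhba product, is known for restraining hepatocyte growth.

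The promoter windows of the 3 genes whose probe sets passed the filter are shown because an AhR ligand and Nrf2 activators were fed. They run from 250 bases before to 50 after the start site in the RefSeq table for build GRCr8, which held windows for 5 of the 6 genes (all but Fst). The Inhba window belongs to an internal start site, 6434 bases inside the annotated start of the gene. They are read 5′ to 3′ along the gene, and capitals mark matches to any of 5 searched motifs.
Inhba, chr17:53804459-53804758, minus strand: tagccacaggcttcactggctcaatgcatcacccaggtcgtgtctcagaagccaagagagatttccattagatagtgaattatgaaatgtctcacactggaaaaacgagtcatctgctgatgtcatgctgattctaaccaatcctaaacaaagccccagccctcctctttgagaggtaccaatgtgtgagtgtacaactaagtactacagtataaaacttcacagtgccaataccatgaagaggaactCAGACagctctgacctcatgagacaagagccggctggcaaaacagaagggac
Inhbe, chr7:65064470-65064769, minus strand: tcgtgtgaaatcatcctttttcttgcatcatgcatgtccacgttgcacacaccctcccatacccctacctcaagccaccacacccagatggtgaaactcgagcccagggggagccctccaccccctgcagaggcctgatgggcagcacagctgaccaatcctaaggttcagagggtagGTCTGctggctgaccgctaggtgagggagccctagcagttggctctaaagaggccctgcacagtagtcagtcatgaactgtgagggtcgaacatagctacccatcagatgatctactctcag
Bambi, chr17:58820954-58821253, minus strand: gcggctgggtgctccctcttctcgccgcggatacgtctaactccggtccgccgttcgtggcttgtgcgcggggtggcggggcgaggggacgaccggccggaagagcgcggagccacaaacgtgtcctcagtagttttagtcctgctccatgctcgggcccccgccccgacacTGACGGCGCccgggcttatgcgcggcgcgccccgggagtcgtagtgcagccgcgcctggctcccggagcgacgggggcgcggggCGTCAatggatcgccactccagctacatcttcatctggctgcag
The AhR core GCGTG, searched on both strands as all motifs were, had 0 matches in each of the 5 windows, while 29.7% of 33469 windows of the same length held it. The Nrf2 element core TGACNNNGC, found in 12.1% of windows, matched once, in Bambi from position -78, where it overlaps a match to TGACG, the core of the cAMP response element. A second TGACG lies in Bambi from position 7 on the opposite strand, and this core occurs in 21.2% of windows. The Smad box CAGAC, present in 50.1% of windows, was matched in Inhba from position -2 and, on the opposite strand, in Inhbe from position -72. The AP-1 element TGANTCA, present in 7.33% of windows, had no match in the 5. These matches describe letters in the window and were not tested as binding sites. Inhbe and Inhbc are next to each other on chromosome 7 in the RefSeq table, with 0 annotated genes between them and 4930 bases from the end of one to the start of the other.

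Values are deposited log2 probe set summaries, in which a difference of 1 is a doubling, and the number of arrays limits their precision. Over the tested probe sets the arrays labelled D3T 5 and OLT 1 resembled the opposite dithiolethione group more than their own: D3T 5 had a mean correlation of 0.979 with OLT arrays and 0.968 with the other D3T arrays, and OLT 1 had 0.966 with D3T arrays and 0.963 with the other OLT arrays. Results that rest on these arrays are given with and without them, and since the pair was picked on these same expression values, leaving it out sets D3T and OLT further apart by construction. Hepatocyte markers were high everywhere: the mean of 8 of 9 listed markers lay between 14.28 and 14.78 in all 20 arrays. The mean of 8 of 9 macrophage markers lay between 7.91 and 9.19 in BNF livers and between 7.25 and 7.83 in control livers, that of 8 of 10 stellate cell markers between 7.29 and 8.06 in BNF and between 6.32 and 7.21 in control livers, and that of 3 of 7 lymphocyte markers between 7.61 and 8.30 in BNF and between 6.82 and 7.50 in control livers. Of the 3 lymphocyte markers, Ptprc and Cd74 averaged higher in BNF than in control livers, and Cd3e lower (4.92 against 5.04). In BNF versus control, limma at an adjusted p under 0.05 called 4 of 8 stellate markers higher. It called 1 of 8 macrophage and 1 of 3 lymphocyte markers higher, and 0 lower, beside 1.77% of all genes higher. The mean of 5 of 8 endothelial markers lay between 6.29 and 7.33 in BNF and 5.97 and 6.74 in control livers (0 called). In D3T and OLT livers the macrophage mean lay between 6.34 and 7.95, the stellate mean between 6.34 and 6.95 and the lymphocyte mean between 6.59 and 7.50. In whole liver, fewer cells of a type and less RNA per cell cannot be told apart.

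Inhba, which encodes the beta A subunit, had its variable signal on probe set 1383486_at. In BNF livers this probe set read 2.49, 2.38, 2.41, 2.51 and 2.77. In D3T livers it read 4.24, 3.22, 3.43, 3.84 and 5.72, in OLT livers 2.55, 7.12, 3.06, 6.45 and 4.53, and in control livers 6.55, 6.38, 7.47, 3.94 and 5.61. All 5 BNF values lay under all 5 control values and under all 5 D3T values, as happened in one direction or the other for 6.77% and 12.2% of tested probe sets, whereas the OLT range of 2.55 to 7.12 reached into the BNF range at its low end and close to the top of the control range. The filter was passed with 9 arrays above 4, of which 0 were BNF, 2 D3T, 3 OLT and 4 control.

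Group means of this Inhba probe set were 2.51 ± 0.16 in BNF, 4.09 ± 0.99 in D3T, 4.74 ± 2.02 in OLT and 5.99 ± 1.32 in control livers (SD, n = 5 each). The difference of BNF from control was -3.48 on the log2 scale. BNF values sat at background, since the 16322 probe sets that never exceeded 4 had a median level of 2.54, so the size of the difference depends on where that background lies. The mean levels of the macrophage, stellate and lymphocyte lists given above were higher in BNF livers, though Cd3e of the lymphocyte list was not. The part of these cell types in the Inhba values was not tested.

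For the dithiolethiones the same Inhba probe set can be tested, though both comparisons share the control arrays with each other and with BNF. The choice of Inhba for its fall in BNF livers also drew on these control values. It favoured high control readings, which tilts both comparisons towards lower values, and the p-values do not allow for this. D3T differed from control by -1.90 (95% interval -3.50 to -0.31), which limma did not call after Benjamini-Hochberg adjustment over all tested probe sets (SE 0.76, adjusted p = 0.116). With D3T 5 and OLT 1 both left out the difference was -2.31 (SE 0.69) and was called, with an adjusted p of 0.0351. The array labelled D3T 5 held the highest D3T value, 5.72, and without the pair of arrays the D3T mean was 3.68 ± 0.45 (n = 4), with all 4 remaining values at or under 4.24. Leaving out D3T 5 alone gave an adjusted p of 0.0629, and leaving out control 4, the lowest control, gave 0.0512.

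OLT differed from control by -1.25 in Inhba (95% interval -2.85 to 0.34, limma adjusted p = 0.337), and the SD of OLT livers, 2.02, exceeded the difference. The array labelled OLT 1 held the lowest OLT value, 2.55, and without both arrays the OLT mean was 5.29 ± 1.85 (n = 4) and the difference from control -0.70 (adjusted p = 0.636). With array weights the sign turned, to 0.28 (adjusted p = 0.836). OLT minus D3T was 0.65 (95% interval -0.94 to 2.24, adjusted p = 0.835), and 1.60 (0.06 to 3.15, adjusted p = 0.272) without the 2 arrays. The diets were not matched in dose, and the interval from all 20 arrays holds differences in either direction. From the lowest mean to the highest the diets ran BNF, D3T, OLT and control, and neither OLT and D3T nor OLT and control, as neighbours in that order, differed beyond their spread.

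**Figure D1:**
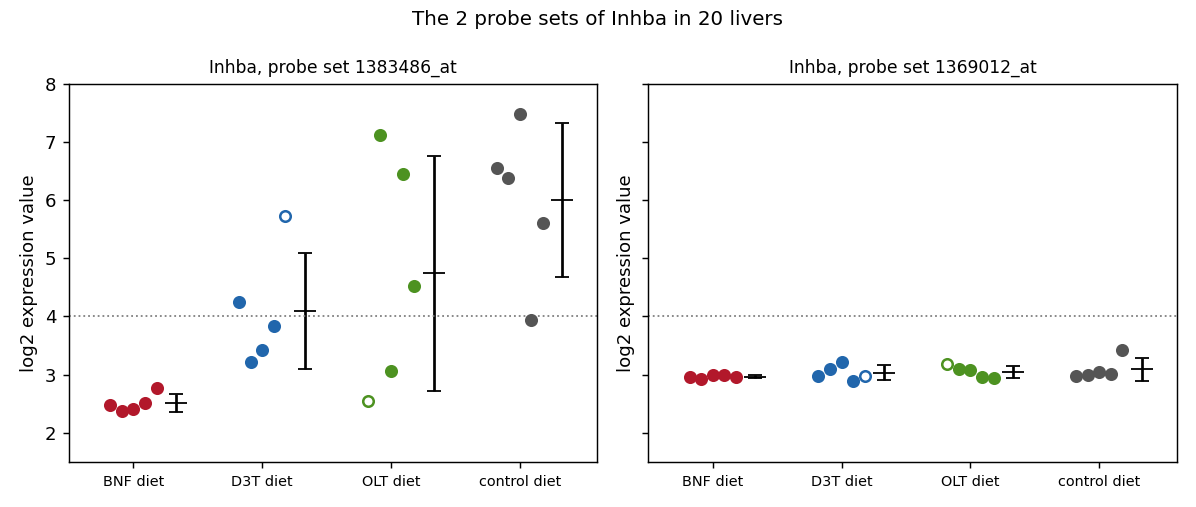
Log2 values of both Inhba probe sets in each liver, by diet, with the mean and SD of 5 livers beside the points; open circles are the arrays labelled D3T 5 and OLT 1, and the dotted line is the filter level of 4. On probe set 1383486_at the 5 BNF livers lie between 2.38 and 2.77 and the control livers between 3.94 and 7.47, while probe set 1369012_at stays between 2.89 and 3.43 in all 20 livers.

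The second Inhba probe set, 1369012_at, did not follow the first. It averaged 2.96 ± 0.03 in BNF, 3.03 ± 0.13 in D3T, 3.05 ± 0.10 in OLT and 3.09 ± 0.19 in control livers (SD, n = 5 each), with no array above 3.43. BNF values of 2.93 to 3.00 overlapped control values of 2.97 to 3.43. Across the 20 arrays its correlation with probe set 1383486_at was 0.09, and -0.28 for deviations from the diet means. The platform annotation ties 1369012_at to a RefSeq transcript of Inhba and gives 1383486_at no transcript, and which part of the gene each probe set covers was not analysed here. The Inhba differences between diets therefore rest on 1 probe set, and its counterpart stayed under the filter level in every group, control included.

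Inhbe, encoding the beta E subunit, gave a high signal in every liver. It read 9.88, 10.21, 9.62, 9.19 and 9.44 in BNF livers, and 9.19, 9.15, 8.50, 9.21 and 8.96 in D3T livers. In OLT livers it read 9.18, 9.49, 9.04, 9.00 and 9.17, and in control livers 10.00, 8.87, 9.55, 7.95 and 8.63. All groups overlapped, BNF and D3T only between 9.19 and 9.21, and the SD was 0.39 in BNF, 0.30 in D3T, 0.19 in OLT and 0.80 in control livers.

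Mean Inhbe levels were 9.67 in BNF, 9.00 in D3T, 9.18 in OLT and 9.00 in control livers, so BNF minus control was 0.67, or 0.41 without control 4, the lowest control liver. D3T differed from control by 0.00 (95% interval -0.60 to 0.60, adjusted p = 0.999) and OLT by 0.18 (-0.42 to 0.77, adjusted p = 0.747), and limma called neither. Without control 4 these differences were -0.26 and -0.09, so neither has a settled sign. BNF exceeded D3T by 0.67 (95% interval 0.07 to 1.27) and OLT by 0.49 (-0.11 to 1.09). Neither passed the test, at adjusted p = 0.129 and 0.292. OLT minus D3T was 0.17 (-0.42 to 0.77, adjusted p = 0.895). In the order of means, BNF, OLT, D3T and control, no neighbours differed beyond their spread by this test.

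Inhbc, the beta C subunit gene that lies next to Inhbe, had a probe set near background, 1369558_at, with 1 of 20 arrays above 4. Its values ran from 2.51 to 3.21 in BNF, from 2.05 to 3.91 in D3T, from 2.02 to 3.78 in OLT and from 2.66 to 4.09 in control livers. The groups overlapped throughout, and the highest values of the D3T, OLT and control groups came from D3T 1, OLT 5 and control 1. Without the filter D3T differed from control by -0.43 (95% interval -1.19 to 0.32, limma adjusted p = 0.779) and OLT by -0.43 (-1.19 to 0.32, adjusted p = 0.683). Across the 20 arrays Inhbc correlated at -0.71 with the mean of the probe sets that never exceeded 4, a value shared by all such probe sets of an array. Its correlation with Inhbe was 0.27.

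Inhbb, encoding the beta B subunit, ranged from 2.46 to 2.72 over all 20 livers on its single probe set, 1377163_at. Group means were 2.57 ± 0.08 in BNF, 2.55 ± 0.07 in D3T, 2.54 ± 0.07 in OLT and 2.53 ± 0.02 in control livers (SD, n = 5 each), within the level of probe sets that were never above 4. Its differences from control, fitted without the filter, were 0.02 (95% interval -0.06 to 0.11) in D3T and 0.01 (-0.07 to 0.10) in OLT.

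Fst, the activin-binding follistatin gene, was likewise at background on both of its probe sets. Probe set 1372750_at ranged from 2.50 to 2.64 and 1387843_at from 1.90 to 1.99 over the 20 livers, and no group mean of either departed from control by more than 0.02. Both followed the array-wide background, with correlations of 0.80 and 0.94 to the mean of the probe sets never above 4, and with each other at 0.69 (20 arrays). A change of Fst below this level could not be seen with these probe sets.

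Bambi, the receptor-like inhibitor, was measured just above the filter level, with 17 of 20 arrays over 4. It read 4.59, 4.38, 4.18, 4.29 and 4.64 in BNF livers, and 4.36, 4.19, 4.14, 4.17 and 4.14 in D3T livers. In OLT livers it read 4.03, 4.19, 3.63, 4.16 and 4.16, and in control livers 4.45, 3.80, 4.16, 4.14 and 3.98. All 20 values lay between 3.63 and 4.64, and each group overlapped every other.

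Mean Bambi levels were 4.42 ± 0.20 in BNF, 4.20 ± 0.09 in D3T, 4.03 ± 0.23 in OLT and 4.10 ± 0.24 in control livers (SD, n = 5 each). BNF minus control was 0.31. D3T differed from control by 0.10 (95% interval -0.17 to 0.36, adjusted p = 0.674). OLT differed by -0.07 (-0.34 to 0.20, adjusted p = 0.769), a sign that turned when arrays were centred on their medians or weighted (0.10 and 0.12). BNF exceeded OLT by 0.38 (95% interval 0.12 to 0.65), which limma did not call (adjusted p = 0.0655), except when control 1 was left out (adjusted p = 0.0439). BNF minus D3T was 0.22 (-0.05 to 0.48, adjusted p = 0.288), and OLT minus D3T was -0.17 (-0.43 to 0.10, adjusted p = 0.713). From the highest mean to the lowest the order was BNF, D3T, control and OLT, with no neighbours that differed beyond their spread by this test.

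**Figure D2:**
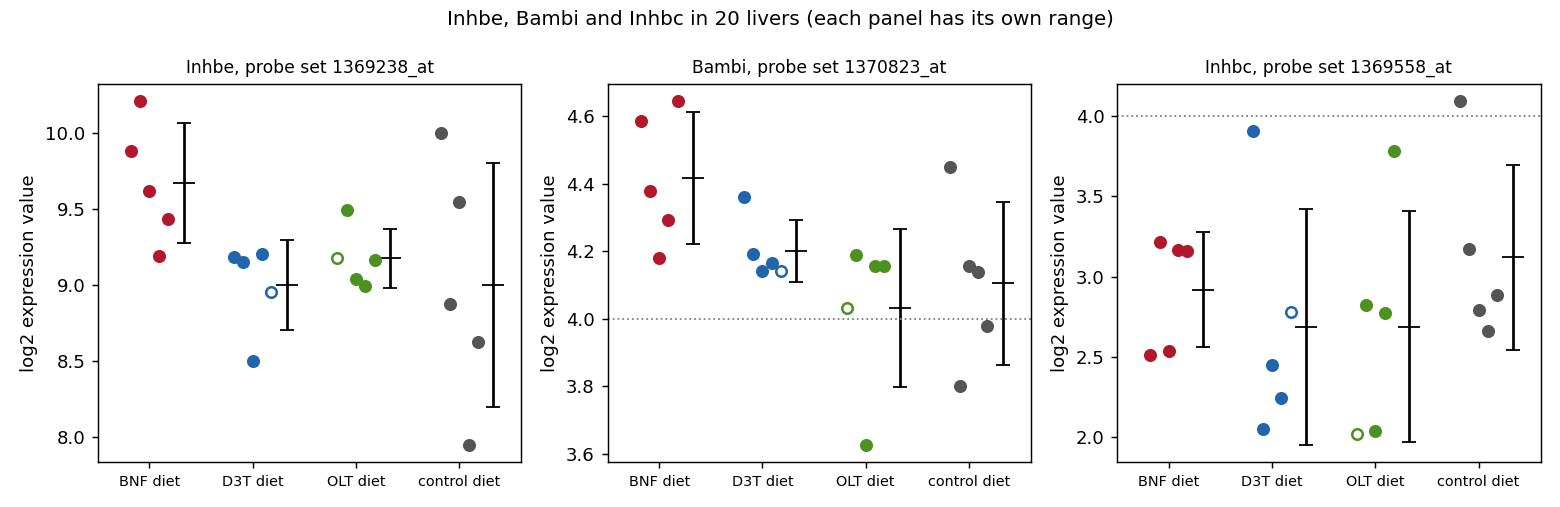
Log2 values of Inhbe, Bambi and Inhbc in each of the 20 livers, by diet, with mean and SD (n = 5) beside the points; open circles are the arrays labelled D3T 5 and OLT 1, dotted lines mark the filter level of 4, and each panel has its own range. Inhbe lies between 7.95 and 10.21 in every liver, Bambi between 3.63 and 4.64, and Inhbc has 1 value above 4.

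By limma at an adjusted p under 0.05, 3.48% of all tested probe sets were called in BNF versus control. Since this comparison led to the choice of the set, no count of member calls is given for it. In D3T versus control 0 of the 3 tested member probe sets were called, and 1 had an unadjusted p under 0.05. Of all 12947 tested probe sets, 11.6% were called in that comparison and 3355 had an unadjusted p under 0.05. In OLT versus control 0 of 3 were called (0 unadjusted), beside 6.38% of the 12947 (2875 unadjusted). Between OLT and D3T 0 of 3 were called (0 unadjusted), and 0 of all 12947 tested probe sets (1385 unadjusted). Leaving Inhba aside, 0 of 2 were called between BNF and D3T (1 unadjusted, Inhbe), beside 14.9% of the 12947 (3649 unadjusted). Again without Inhba, 0 of 2 were called between BNF and OLT (1 unadjusted, Bambi), beside 9.62% (3187 unadjusted).

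**Figure D3:**
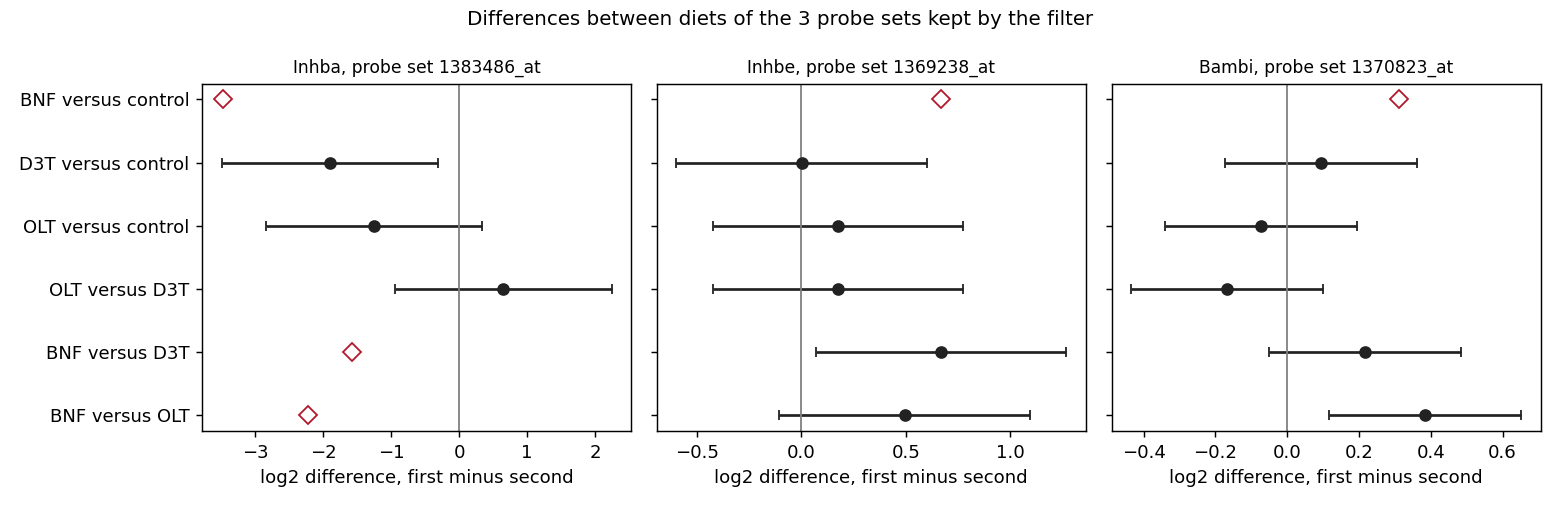
Log2 differences between diets, first-named minus second-named, for the 3 member probe sets that passed the filter; black circles carry the 95% interval of the limma fit to all 20 arrays, and open red diamonds are differences given without an interval because the choice of genes used them. The intervals of Inhba for D3T and OLT against control span -3.50 to -0.31 and -2.85 to 0.34, those of Inhbe and Bambi against control include 0, and the horizontal ranges differ between panels.

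The correlation of Inhba with Inhbe and Bambi depended on whether the diet means were kept. Over the 20 arrays, which share their diets, Inhba (1383486_at) correlated at -0.09 with Inhbe and at -0.21 with Bambi, and at 0.42 and 0.34 when each value was taken relative to its diet mean. The values over all 20 arrays include the BNF readings of Inhba that led to the choice of the set. Within the control diet the lowest liver for Inhba, control 4 at 3.94, was also the lowest for Inhbe, at 7.95. Inhbe and Bambi correlated at 0.52 over all arrays and at 0.38 relative to diet means. These correlations are descriptions of 20 arrays and carry no test.

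Among 7836 other genes, the pattern of Inhba over the 20 arrays was most like that of Plin2 (r = 0.83), which coats lipid droplets, followed by Adtrp and Pxdc1 (r = 0.83 for both). Without D3T 5 and OLT 1 the values were 0.84, 0.81 and 0.89, with Pxdc1 highest of these 3. Plin2 averaged 10.98 in BNF, 11.20 in D3T, 11.19 in OLT and 11.92 in control livers. Relative to diet means, the closest genes to Inhba were Elovl5, a fatty acid elongase (r = 0.85), Abhd2 (r = 0.81) and Fbxo6 (r = 0.79), at 0.79, 0.70 and 0.66 without those 2 arrays. Elovl5 averaged 12.93 in BNF and 12.16 in control livers, the opposite order to Inhba, and its correlation over the values themselves was -0.04. Inhbe was most like Lpl, lipoprotein lipase (r = 0.77), Col1a2, a type I collagen chain (r = 0.74), and Hgfac, the activator of hepatocyte growth factor (r = 0.70). Bambi was most like Aebp2 (r = 0.84), Pctp, a phosphatidylcholine carrier (r = 0.81), and Stard3nl (r = 0.80).

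Most measured genes that carry or limit the activin signal did not pass the test in any comparison with control, while some known target genes did. Of 60 listed genes of the wider activin, TGF-beta and BMP pathway, 31 had a probe set that passed the filter. Against control, 4 of the 31 were higher and 0 lower in BNF, 0 higher and 5 lower in D3T, and 0 higher and 2 lower in OLT. The corresponding shares of all 7837 genes were 1.77% higher and 2.4% lower in BNF, 5.6% and 7.45% in D3T, and 1.93% and 5.58% in OLT. The median difference over the 31 was -0.07 in BNF, -0.13 in D3T and -0.12 in OLT, beside -0.06, -0.02 and -0.05 over all genes.

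None of the 7 measured receptors was called against control, among them the activin type II receptors Acvr2a and Acvr2b and the type I receptors Acvr1 and Acvr1c. The other listed receptors were not measured. Acvr1b, Bmpr1b and Tgfbr2 had no probe set assigned to them alone, and those of Tgfbr3 and Acvrl1 did not pass the filter. Acvr2a differed from control by 0.17 in BNF, -0.42 in D3T and -0.37 in OLT (SE 0.21, adjusted p = 0.815, 0.215 and 0.297). Of 5 measured Smads that carry the signal (Smad7, an inhibitor, is given with the inhibitors), 1 fell, in D3T: Smad1, which carries BMP signals, averaged 8.90 in D3T and 9.52 in control livers, a difference of -0.62 (SE 0.15, adjusted p = 0.00921). The activin-responsive Smad2 gave 0.25 in BNF, -0.20 in D3T and -0.38 in OLT, and Smad3 gave -0.11, 0.39 and 0.40, with no call. Smad3 lay near the filter level, with means of 3.55 in BNF, 4.05 in D3T, 4.06 in OLT and 3.66 in control livers. Without D3T 5 and OLT 1 its probe set did not pass the filter. Other measured ligands were Tgfb1 and Bmp2, neither called against control. The alpha subunit gene Inha and the follistatin-like gene Fstl3 had probe sets that did not pass the filter.

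Of 5 measured inhibitors, Smad7, which blocks receptor signalling to Smads, was lower in D3T, at 5.00, than in control livers, at 6.61, by -1.61 (SE 0.45, adjusted p = 0.0258). Without control 1, control 5, D3T 2 or D3T 3 it was not called (adjusted p from 0.0665 to 0.0801). Skil, a Smad co-repressor, fell in OLT to 5.52, against 7.24 in control livers (SE 0.48, adjusted p = 0.0377). With D3T 5 and OLT 1 both left out it was not called (adjusted p = 0.0669), and leaving out a single liver, either OLT 1 or OLT 3 or any control but control 3, also ended the call (adjusted p from 0.0663 to 0.0935). In D3T livers Skil averaged 5.88, a difference from control of -1.36 that limma did not call (adjusted p = 0.0733). Without D3T 5 and OLT 1 the D3T difference was -1.47 and was called (adjusted p = 0.0100). OLT minus D3T in Skil was -0.36 (adjusted p = 0.862).

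Of 12 measured known targets, 3 were called lower in D3T, 1 lower in OLT and 4 higher in BNF, with 0 called in the opposite direction. Over all genes, 7.45% were lower in D3T, 5.58% lower in OLT and 1.77% higher in BNF. Id1, a BMP-responsive inhibitor of differentiation, averaged 4.88 in both D3T and OLT livers and 6.87 in control livers, with differences of -1.99 and -1.99 (SE 0.47, adjusted p = 0.00993 and 0.0162). The OLT call was lost without control 1 or control 2 (adjusted p = 0.0511 and 0.0509) and with only the compared groups in the fit. Id2 averaged 11.81 in D3T and 12.85 in control livers (adjusted p = 0.0208), and was not called without control 5 or D3T 3 (adjusted p from 0.0533 to 0.0649). Cdkn1a, the p21 cell cycle inhibitor, gave -0.73 in D3T (adjusted p = 0.0490), with 14 of the 20 single arrays ending the call when left out (adjusted p from 0.0532 to 0.138), and it also ended under centring, no filter, no intensity trend, a robust prior and a fit of only the compared groups. Among 8 measured stellate markers, 1 was called lower in D3T livers (Acta2, -0.88, limma adjusted p = 0.00469) and 0 higher. The median difference of those 8 was 0.05. Among 8 measured macrophage markers, 1 was called lower in OLT livers (Cd163, -1.46, adjusted p = 0.0254) and 0 higher, with a median of -0.54. The part of cell numbers in the lower pathway genes was not tested.

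Between OLT and D3T, 0 of the 31 pathway genes were called. With D3T 5 and OLT 1 left out, 3 were called (Smad7, Id2 and Id4, higher in OLT), beside 549 of 12786 probe sets (4.29%). Because those arrays were picked for resembling the opposite diet, nothing is read from these calls.

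In BNF livers Col1a1, a type I collagen chain, averaged 8.12, against 5.67 in control livers (SE 0.38, adjusted p = 0.00101), and Junb, an AP-1 subunit, 6.82 against 5.26 (adjusted p = 0.0105). Tgif1, a Smad co-repressor, was higher by 0.85 (adjusted p = 0.0343) and Col1a2 by 0.85 (adjusted p = 0.0378). Leaving out any of 3 control livers (1, 2 and 3) or 3 BNF livers (1, 4 and 5) ended the call of Tgif1 (adjusted p from 0.0506 to 0.112). For Col1a2 the same held for 4 control livers (2 to 5) and 3 BNF livers (1 to 3), with adjusted p from 0.0551 to 0.116. Col1a1 and Col1a2 are also in the stellate cell list, so the higher level of that list in BNF livers partly restates them. Of the other measured stellate markers, Col3a1 and Dcn were called higher in BNF (0.95 and 1.99, limma adjusted p = 0.00773 and 0.0219). Acta2, Lrat, Pdgfrb and Reln were not called (0.20, 0.30, 0.07 and 0.40). The part of cell numbers in these values was not tested. Without the filter Smad7, Skil, Tgif1 and Col1a2 were not called, and with only the compared groups in the fit Skil, Tgif1 and Col1a2 were not. Hamp, the hepcidin gene and a BMP target, gave -0.42 in BNF, -0.52 in D3T and -0.79 in OLT, with no call.

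**Figure D4:**
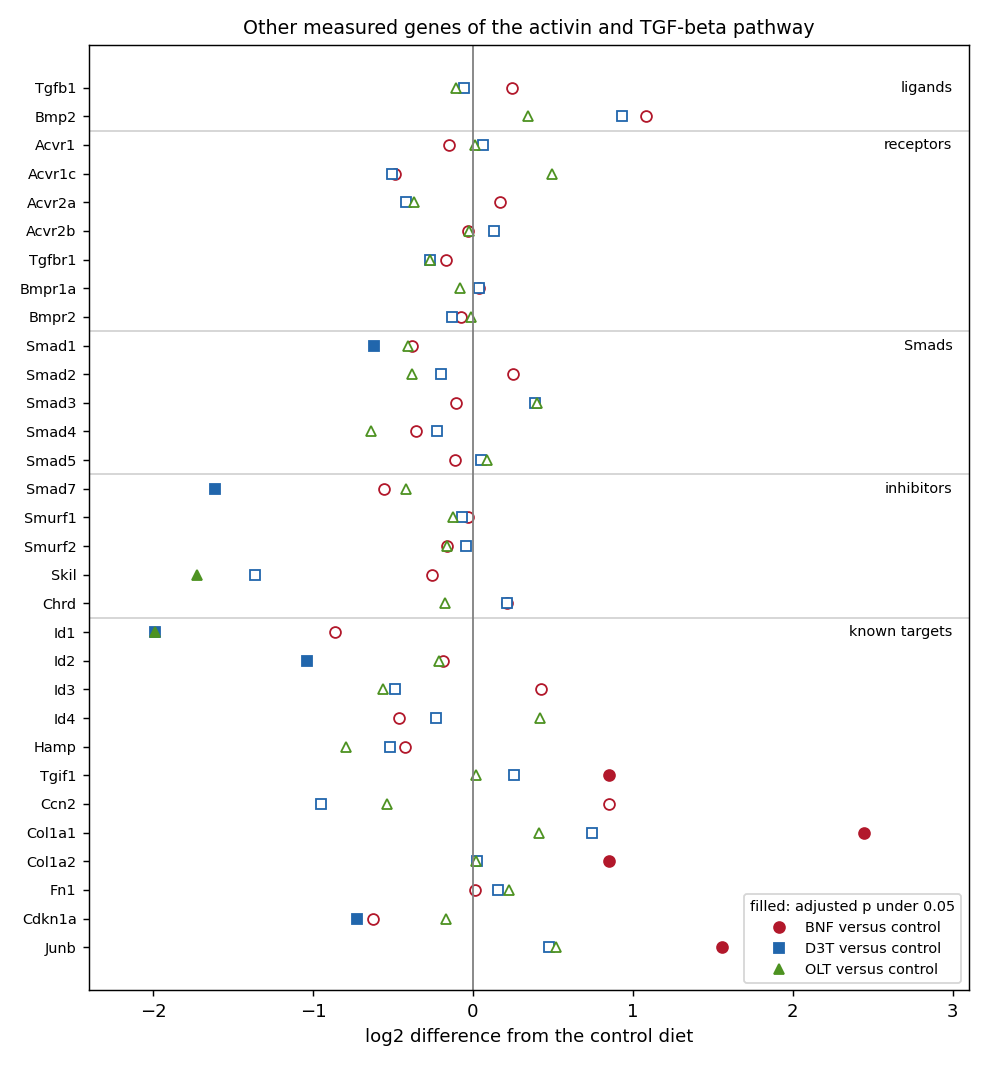
Log2 differences from the control diet for the 31 other measured genes of the activin, TGF-beta and BMP pathway, grouped by role, with BNF as circles, D3T as squares and OLT as triangles; filled symbols have a limma adjusted p under 0.05. Filled D3T and OLT symbols lie to the left of 0 (Id1 at -1.99 in both) and filled BNF symbols to the right (Col1a1 at 2.45), and no receptor symbol is filled.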

How the data were processed

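Liver RNA of 20 rats was hybridized to 1-colour Affymetrix arrays, 1 per rat. The authors made the deposited log2 values with GCRMA, per the submitters' processing notes (version not given in the sources used here). This step removes background, normalizes the arrays and gives 1 summary per probe set. Medians of the deposited values still differed between arrays, as given below. The deposited values were used as given. Array scan dates are not given in the sources used here, so batches could not be examined. The p-values set each difference against the spread between arrays within diets. With 1 array per rat, that spread holds animal and array handling together.

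Probe sets were named from the platform annotation, updated by gene identifier in the RefSeq table (20826 of 31042 had 1 gene, 436 several, 9780 none). The filter, more than 4 on the log2 scale in 5 or more arrays, left 12947 for testing. Gene-level results use the tested probe set with the highest mean. One limma fit (limma 3.58.1, R 4.3.3; lmFit and eBayes with intensity trend, a mean per diet over all 20 arrays) gave 6 comparisons, two-sided, with Benjamini-Hochberg adjustment over all tested probe sets. Member probe sets under the filter take their values from the same fit without it. SE and 95% intervals use the moderated variance. The fit was tested on simulated data.

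The members, the pathway and marker lists, and the arrays left out together were chosen with earlier results of these data known. Genes were named by rule: members, the 3 genes of highest Pearson r for each tested member, and up to 5 called genes per pathway list and comparison with control; a few others that were not called are named for their role. Alternatives were scaling, filters, variance models, array weights, the compared groups alone, the replicate number as a block, and leaving out arrays. Same-numbered arrays were checked for pairing and did not pair.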

Additional observations from a re-analysis of the deposited data

Results flagged for a closer look

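Within single diets, 4 of the 32 combinations of member probe set and diet held a liver far from the other 4, by a gap to its nearest neighbour that took more than 0.71 of the range; chance alone marks about 1 in 20 such groups. The second Inhba probe set, 1369012_at, read 3.43 in control 5, with the next control liver at 3.05. Bambi read 4.36 in D3T 1, with the next D3T liver at 4.19, and 3.63 in OLT 3, with the next OLT liver at 4.03. Inhbb read 2.72 in BNF 2, with the next BNF liver at 2.55. The values for Inhba 1369012_at and Inhbb lie under the filter level, and none of the 4 is on the Inhba probe set that varied with diet.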

How the results depend on the processing

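Of the member differences with a test, recomputed under each alternative, 371 kept direction and side of the threshold and 2 passed the threshold only under the alternative (Inhba in D3T versus control with D3T 5 and OLT 1 both left out, and Bambi in BNF versus OLT without control 1). The sign turned 12 times, never in a called difference: Inhba in OLT versus control at 0.28 with array weights, Bambi in OLT versus control at 0.10 after centring and 0.12 with array weights, and the rest with single livers left out. Those ranges were -0.15 to 0.029 for Bambi in OLT versus control, -0.26 to 0.25 for Inhbe in D3T versus control and -0.087 to 0.43 for Inhbe in OLT versus control. Differences given as description moved by less than the SD within diets. With array weights, in BNF versus control, Inhbe stood at 0.89 and Bambi at 0.39. The cause of these shifts was not tested. Array medians over tested probe sets lay apart from control by -0.07 in BNF, -0.15 in D3T and -0.17 in OLT, and centring moved the median difference over probe sets to 0.12 in D3T and 0.13 in OLT. Without the 2 arrays the number of member probe sets called became 1 in D3T versus control (0 in the fit reported), beside 13.4% of all. For BNF versus control no count of member calls is given, since that comparison led to the choice of the set. Between BNF and the dithiolethiones Inhba is left aside, as its BNF comparisons are description. The only added call there was Bambi in BNF versus OLT without control 1, beside 10.1% of all. The pathway counts were recomputed under alternatives chosen after seeing the data. In BNF versus control 4 calls became 2 without the filter, 8 with array weights, 2 with only the compared groups and 2 to 4 with single livers left out. In D3T versus control 5 became 3 without the filter and 2 to 6 with single livers left out. In OLT versus control 2 became 1 without the filter, 0 with only the compared groups, 1 without the 2 arrays and 0 to 3 with single livers left out. Over all probe sets, calls against control numbered 450 in BNF, 1502 in D3T and 826 in OLT, and 1480, 2885 and 2054 with array weights. Without the filter D3T had 974 and OLT 457, and OLT had 382 with only the compared groups.

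Replicate numbers did not pair the livers: 11 of 30 same-numbered pairs of arrays had deviations correlated above 0.1, and 2 of 20 arrays correlated best with their own number. With the replicate number as a block, Inhba in D3T versus control stayed at -1.90 (limma adjusted p = 0.153), member calls were unchanged in number, and calls over all probe sets were 419 in BNF, 1578 in D3T and 870 in OLT versus control. The 5 member probe sets under the filter have values from the unfiltered fit alone, and low signal limits what can be said of Fst, Inhbb and Inhbc.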
